A study of Mus musculus with 6 samples.

Results

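Cdk1, Cdca4, Gins3, Gins4 and Mcts1 are grouped here as genes of DNA replication and the cell cycle, although Mcts1 acts in protein synthesis. They were taken from a list of liver genes that the study's authors set out for mice given jujube extract. The list pairs 122 array features with a gene, under headings by function, and all 5 genes stand under its heading for cell division and proliferation. The authors' table gives ratios of treated to control expression from these same mice, so the genes were chosen from the contrast described below. Their differences between extract and control are therefore a description, with no test, and they support nothing about a response of replication genes. Those ratio columns were not used, and every value below comes from the deposited intensities.

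Liver RNA of 6 male mice was measured, 1 mouse on each 1-colour array. Control mice received water by gavage each day for 20 days (n = 3), and the other group received 500 µl a day of an aqueous extract of Ziziphus jujuba at 6 mg/mL (n = 3). All were 8 weeks old at day 0 and ate standard chow. Each sample is a piece of the left lobe from a separately labelled individual, and the strain is not stated in the labels.

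Cells copy their DNA once per division. The replicative helicase is the MCM ring joined to Cdc45 and to the GINS complex, a stable assembly of Sld5 and the Psf proteins, and GINS also couples the helicase to a DNA polymerase. Cdk1, driven by its cyclins, then carries the cell into mitosis. Most hepatocytes of an adult liver are quiescent and re-enter the cycle after tissue loss or injury, when genes of replication and mitosis are switched on together.

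Cdk1 encodes the mitotic cyclin-dependent kinase and lies on chromosome 10 (chr10:69335146-69352912, GRCm38.p6). Gins3 (chr8:95633559-95645059) and Gins4 (chr8:23226610-23237668) encode the Psf3 and Sld5 subunits of GINS. Cdca4 (chr12:112820229-112829521) encodes a nuclear protein of the SERTA domain family that was linked to E2F-dependent transcription in human cells. Mcts1 (chrX:38600471-38613524) encodes a partner of Denr in translation re-initiation and ribosome recycling. Its role is thus in protein synthesis, although the authors' table lists it under cell division and proliferation. A near copy of it, Mcts2, lies on chromosome 2 (chr2:152687148-152687946), and whether the Mcts1 feature also measures Mcts2 was not tested. Each gene has 1 feature among the 122 named ones, and whether unnamed features also measure these genes is not known. The accessions of all 5 were found under the same symbol in a RefSeq gene table.

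Promoter windows, 250 bases before and 50 bases after an annotated start, were found for 4 of the 5 genes, Cdk1, Cdca4, Gins3 and Mcts1, in RefSeq (GRCm38.p6). They were searched on both strands for letters known from cell cycle promoters. These were CCAAT, the CHR letters TTTGAA and TTCGAA, and the E2F letters TTTCCCGC, TTTCGCGC, TTTGCCGC and TTTGGCGC. The windows of Cdk1 and Gins3 held all 3 kinds of letters, and they are among the 48 of 32851 windows, 0.146%, that did. The second window of Cdca4 held a CCAAT and a CHR match, and the share of all windows that held both was not counted. These 3 windows are shown 5′ to 3′ on the gene's strand, with the matches in capitals, because they held the most kinds of match. Genes and letters were both chosen for the cell cycle, so nothing about regulation is read from the shared letters.
Cdk1 (minus strand, chr10:69352863-69353162): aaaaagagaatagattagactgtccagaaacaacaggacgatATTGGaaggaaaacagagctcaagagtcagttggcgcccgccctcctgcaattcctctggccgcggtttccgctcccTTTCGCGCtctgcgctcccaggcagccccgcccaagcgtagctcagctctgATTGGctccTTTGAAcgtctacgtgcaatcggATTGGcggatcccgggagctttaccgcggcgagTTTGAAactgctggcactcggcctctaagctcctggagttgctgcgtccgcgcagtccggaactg
Gins3 (plus strand, chr8:95633309-95633608): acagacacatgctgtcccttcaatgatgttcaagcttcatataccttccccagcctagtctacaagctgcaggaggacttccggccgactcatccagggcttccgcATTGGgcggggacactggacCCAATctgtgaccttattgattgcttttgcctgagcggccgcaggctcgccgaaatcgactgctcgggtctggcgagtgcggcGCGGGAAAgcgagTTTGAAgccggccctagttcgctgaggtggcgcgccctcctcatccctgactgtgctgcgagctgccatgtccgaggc
Cdca4, second window (minus strand, chr12:112829340-112829639): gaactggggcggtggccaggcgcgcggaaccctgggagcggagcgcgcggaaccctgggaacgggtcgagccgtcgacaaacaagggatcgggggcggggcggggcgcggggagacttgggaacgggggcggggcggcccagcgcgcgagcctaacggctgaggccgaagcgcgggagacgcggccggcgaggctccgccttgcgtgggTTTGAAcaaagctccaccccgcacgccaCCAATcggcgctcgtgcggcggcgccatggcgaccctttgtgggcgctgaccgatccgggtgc

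In the Cdk1 window, CCAAT stood on the opposite strand at positions -208, -80 and -48 from the start (first base of the match as printed), TTTGAA on the gene's strand at -71 and -15, and TTTCGCGC on the gene's strand at -131. In the Gins3 window, CCAAT stood at -144 on the opposite strand and at -124 on the gene's strand, TTTGAA at -28, and TTTCCCGC at -41 on the opposite strand. In the Cdca4 window TTTGAA stood at -41 and CCAAT at -13. The other Cdca4 window and the first Mcts1 window held no match, and the second Mcts1 window held 1 CCAAT. Over all 32851 windows, 37.4% held CCAAT, 19.2% a CHR match and 2.26% an E2F match. No 2 matches overlapped in these windows, and a match describes letters only.

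The arrays as a whole set the scale for these values. Of 45220 features, 22.7% to 26.8% on an array exceeded an intensity of 100, and 9434 did so on all 6 arrays and are called bright. All 5 genes were among the bright features. The arrays differed in brightness, and without scaling the median bright feature was higher in the extract group by 0.18 on the log2 scale. The array of extract mouse 1 stood apart, with correlations of 0.955 to 0.959 to the others over bright features. The other 5 arrays correlated with each other at 0.975 to 0.985.

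Cdk1 had intensities of 134, 158 and 162 in control mice 1, 2 and 3, and of 246, 399 and 246 in extract mice 1, 2 and 3. All 3 extract livers lay above all 3 control livers, and mouse 2 was the highest of them. The control values were little above the level of 100 that defines a bright feature. More dividing cells and more RNA per cell cannot be told apart in whole liver RNA.

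After quantile normalization between the arrays, Cdk1 was 7.32, 7.54 and 7.27 with water and 8.08, 8.33 and 7.81 with the extract on the log2 scale. The means were 7.38 ± 0.15 (SD, n = 3) and 8.07 ± 0.26 (SD, n = 3), a difference of 0.70 (SE 0.17), or 1.62-fold. This was the highest difference of the 5 genes under this scaling, and 99.3% of bright features had a smaller one.

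Gins4 had intensities of 326, 374 and 366 with water and of 421, 979 and 500 in extract mice 1, 2 and 3. The groups did not overlap, but mice 1 and 3 were close to the controls and mouse 2 stood far above both. Normalized values were 8.60, 8.73 and 8.41 with water against 8.93, 9.64 and 8.84 with the extract. The difference was 0.56 (SE 0.27), or 1.47-fold, and without extract mouse 2 it was 0.31.

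Gins3, the other GINS subunit, had intensities of 609, 804 and 1023 with water and of 1201, 1096 and 1676 with the extract. Every extract liver was above every control before scaling. Normalized values were 9.49, 9.82 and 9.87 with water and 10.49, 9.80 and 10.57 with the extract, so that mouse 2 came to lie within the control range. Here the difference was 0.57 (SE 0.27), or 1.48-fold, and 0.80 without extract mouse 2. The 2 GINS subunits thus had nearly the same mean difference with opposite orders of the extract mice, since mouse 2 was the highest for Gins4 and the lowest for Gins3.

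Cdca4 had intensities of 146, 139 and 161 with water and of 145, 229 and 270 with the extract. Mouse 1 lay within the control range, and mice 2 and 3 lay above it. The normalized means were 7.35 ± 0.09 (SD, n = 3) and 7.58 ± 0.36 (SD, n = 3), a difference of 0.23 (SE 0.21), or 1.17-fold. The difference was 0.41 without extract mouse 1 and 0.04 without extract mouse 3, so single livers decide its size.

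Mcts1, the translation factor, had intensities of 768, 634 and 877 with water and of 543, 1165 and 1193 with the extract. Mouse 1 was the lowest of all 6 livers, and mice 2 and 3 were the highest. The normalized means were 9.65 ± 0.16 (SD, n = 3) and 9.76 ± 0.40 (SD, n = 3), a difference of 0.11 (SE 0.25), or 1.08-fold. It became 0.34, with both remaining extract mice above all controls, without extract mouse 1, and -0.05 without extract mouse 3.

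**Figure D1:**
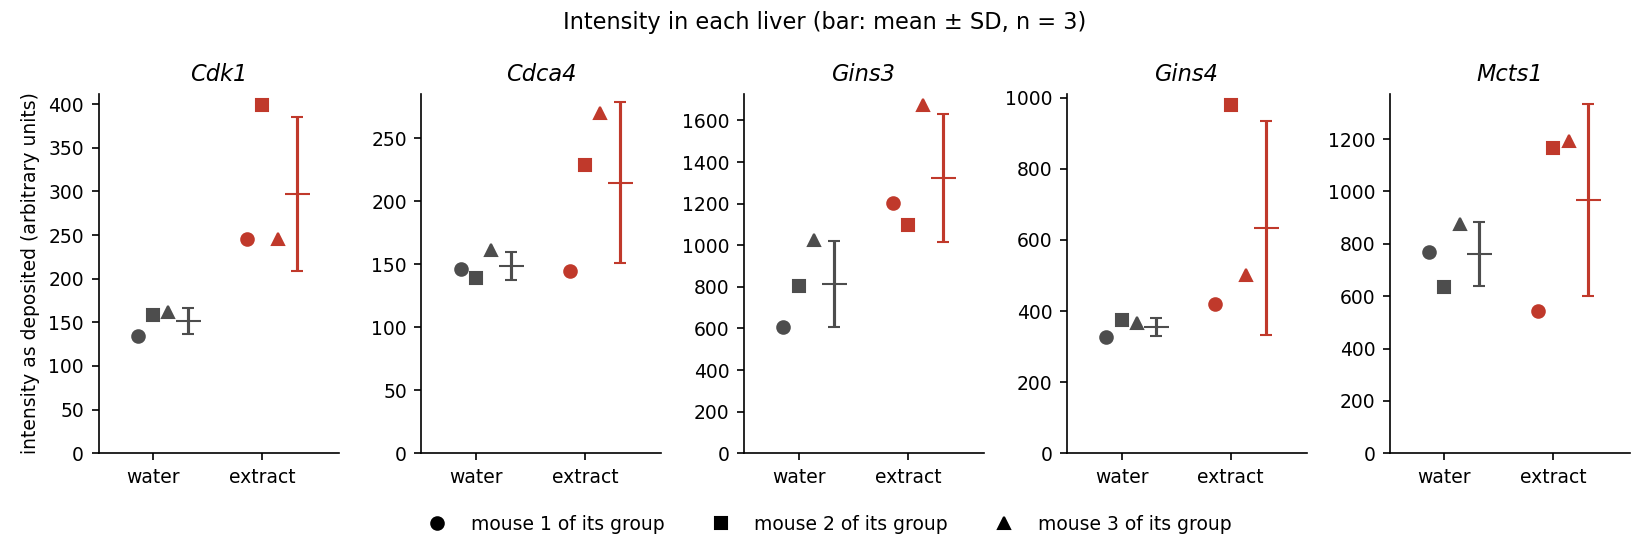
Deposited intensity (arbitrary units, vertical axis from 0) of the 5 genes in each liver, water in grey and extract in red, with a marker shape for each mouse number within its group and a bar for the mean ± SD (n = 3). Cdk1, Gins3 and Gins4 have all extract livers above all controls, while extract mouse 1 of Cdca4 (145) and Mcts1 (543) lies within or below the control range.

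As a group, 5 of 5 genes had a higher normalized mean with the extract (and 0 of 5 with arrays centred on the 75th percentile of all features), and the median of their differences was 0.56 on the log2 scale. Over bright features, 48.2% had a higher normalized mean with the extract (and 0.286% with that centring), and the median normalized difference was -0.01. For 2 of the 5, Cdk1 and Gins4, all extract mice lay above all controls, as they did for 9.54% of bright features. They lay below all controls for 0 of the 5 and for 5.83% of bright features. Groups are called apart where all extract mice lie above all controls, and shares of bright features count that direction. The genes were listed from this contrast, so nothing is read from either count. In the limma comparison of the whole array, 0 of 45220 features (0%) passed an adjusted p of 0.05, these 5 genes included. Limma gave 2313 of 45220 features an unadjusted p below 0.05, near the number that this threshold passes where no feature differs. A test with unequal variances and no moderation likewise called 0 after adjustment. At an unadjusted p below 0.01 and at least 1.5-fold, limma called 669 features, or 1.48%, and 0 of the 5 genes. Fitted on bright features alone it called 158, or 1.67%, with Cdk1 among them.

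**Figure D2:**
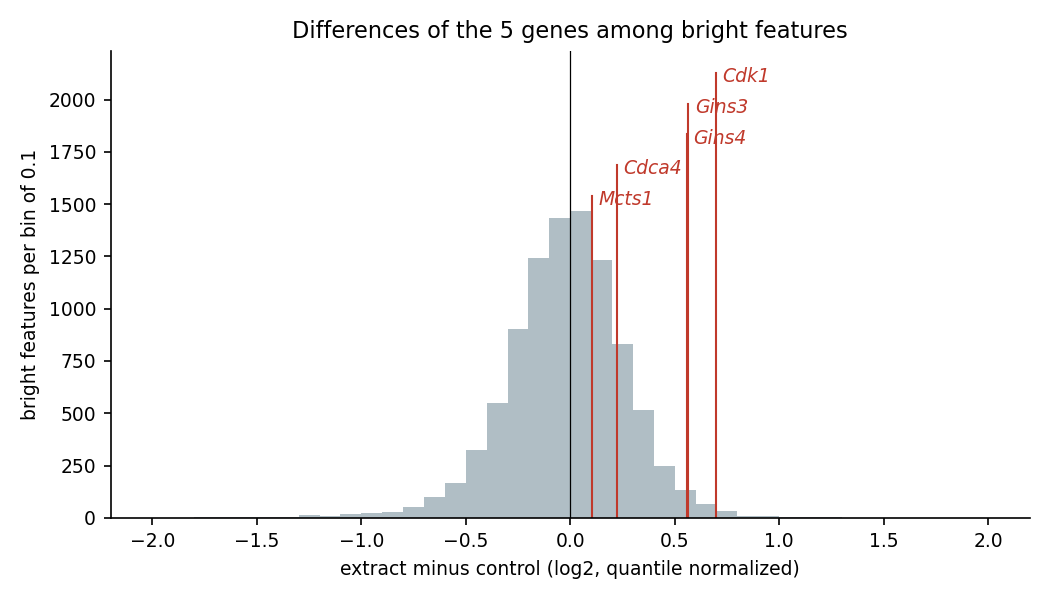
Number of bright features in each bin of 0.1 of the extract-minus-control difference (log2, quantile normalized), with 1 of 9434 features outside the drawn range, and red lines at the 5 genes. Mcts1 at 0.11 and Cdca4 at 0.23 lie inside the bulk of the features, and Gins4 at 0.56, Gins3 at 0.57 and Cdk1 at 0.70 lie in its upper tail.

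Apart from Pclaf, described in the last section, other genes of replication and the cell cycle could not be set beside these. A list of 87 such genes, among them the MCM subunits, Cdc45, Pcna, the other GINS subunits, the cyclins, Mki67 and Denr, had 0 members among the 122 named features, and the remaining features have no name here. The other 9 genes under the same heading all had higher normalized means with the extract, with a median difference of 0.68. Most of the 122 named genes also had higher means, against 48.2% of bright features. Groups were apart for 7 of these 9, against 83 of all 122 named genes and 9.54% of bright features. They ranged from 0.40 for Gkn1, a gastric mucosal protein, to 0.94 for the kinase gene Dyrk3. These were chosen from the same contrast, and none passed the limma threshold. Of 9 hepatocyte markers, 1, the male-biased hydroxylase gene Cyp4a12a, was named, with intensities of 190 to 237 in controls and 354 to 422 with the extract. Of 5 endothelial markers 1 was named, Fcgr2b, at 139 to 807 in controls and 44 to 821 with the extract. Of 5 markers of proliferating cells only Cdk1 itself was named. The lists for cholangiocytes, macrophages, stellate cells, T cells, B cells and erythroid cells had 0 named members, so the labelled tissue was hardly checked by markers and the part of other cell types was not tested.

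The 5 genes fell into different patterns over the 6 livers. Likeness was measured as the root mean square difference between profiles after each gene's own mean was subtracted, on the normalized log2 scale over 6 arrays. Cdk1 and Gins4 differed by 0.155, both with extract mouse 2 highest. Cdca4 and Mcts1 differed by 0.131, both with extract mouse 1 lowest and extract mouse 3 highest. That order was not kept when local deviations in brightness on the arrays were subtracted, since extract mouse 1 then lay at 10.37 for Mcts1 and at 7.50 for Cdca4, above all controls for both. Gins3 was far from each of the others, at 0.378 to 0.522, and farthest from its complex partner Gins4. Profiles of a gene list made from 1 contrast share that contrast and the brightness of each array.

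Among the 122 named genes, the profile nearest to Cdk1 was that of Gabrg3, a GABA receptor subunit gene, at 0.120, followed by the odorant receptor gene Olfr808 at 0.123. Gins4 was nearest to Cdk1 at 0.155 and then to the odorant receptor gene Olfr792 at 0.169. Gins3 was nearest to Btbd10 at 0.135 and L3mbtl1 at 0.191. Cdca4 was nearest to Mcts1 and then to Tnfaip8 at 0.191, and Mcts1 to Cdca4 and then to the tropomyosin gene Tpm1 at 0.134. None of the 5 profiles nearest to Cdk1 came from the heading of cell division, under which 14 of the 122 named genes stand. The nearest profiles of the other members did, namely Btbd10 and L3mbtl1 for Gins3, Cdk1 for Gins4, Mcts1 for Cdca4 and Cdca4 for Mcts1.

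**Figure D3:**
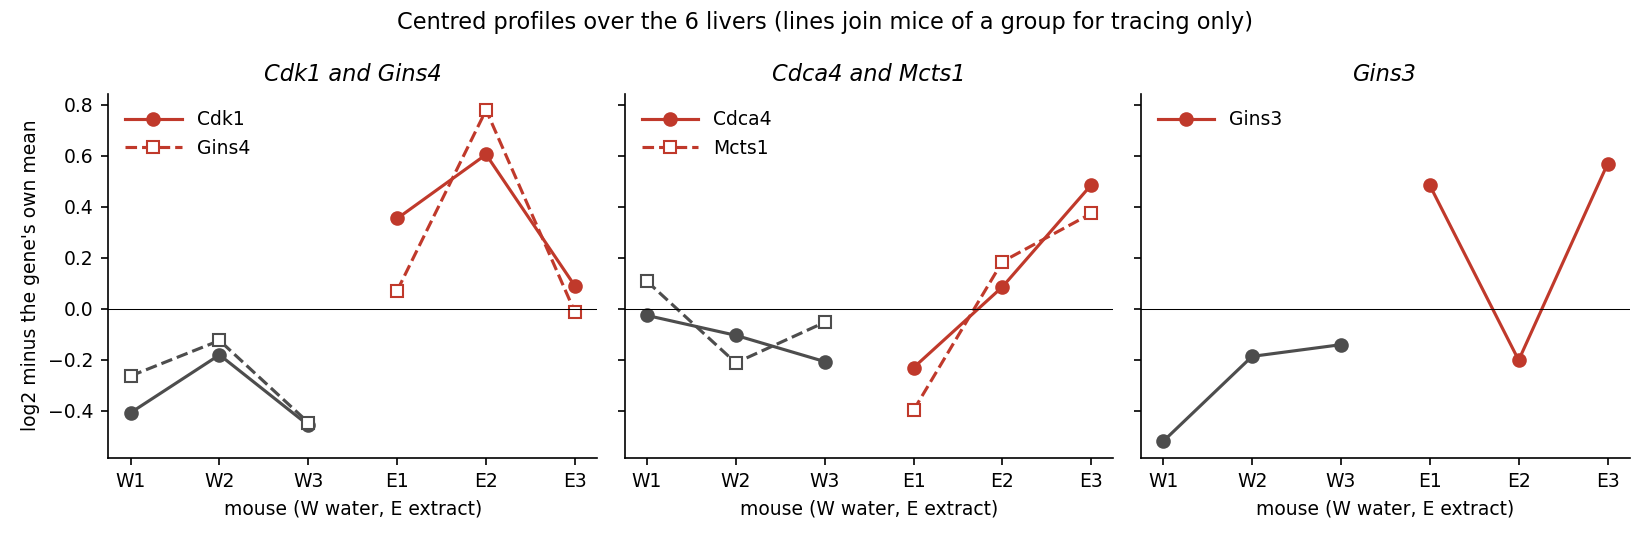
Normalized log2 intensity of each gene minus its own mean over the 6 livers (W1 to W3 water, E1 to E3 extract), with lines joining the mice of a group only to help tracing. Cdk1 and Gins4 peak in extract mouse 2, Cdca4 and Mcts1 are lowest in extract mouse 1 and highest in extract mouse 3, and Gins3 is low in extract mouse 2.

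Brightness also varied from place to place on the arrays, and subtracting this changed the difference between groups most for Mcts1, Cdk1 and Gins3. Features were placed by number in 532 rows of 85, a row length inferred from the data and not from a stated layout. That length is the distance in feature number at which deviations of bright features correlated best. The local deviation is the median, over the surrounding 11 by 11 features, of how far an array departs from the mean of the 6. It used features above 100 on at least 4 arrays, 20 to 30 of them around each gene. Around the Mcts1 feature it was -1.06 on the array of extract mouse 1 and 0.07 to 0.33 on the other arrays. Subtracting it took Mcts1 in that mouse from 9.31, the lowest of the 6 livers, to 10.37, the highest. The difference of Mcts1 became 0.48 (SE 0.24) with all extract mice above all controls, and 0.36 and 0.62 with neighbourhoods of 21 by 21 and 7 by 7 features. Without extract mouse 1 and without this subtraction it was 0.34.

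Around the Cdk1 feature all 3 extract arrays were locally bright, by 0.10 to 0.22, and all 3 control arrays locally dim, at -0.25 to -0.08. With this subtracted, the difference of Cdk1 was 0.39 (SE 0.17), or 1.31-fold, and its groups remained apart, at 7.43 to 7.62 in controls against 7.70 to 8.23. It was 0.33 with the smaller neighbourhood and 0.44 with the larger. Gins3 moved the other way, from 0.57 to 0.84 (SE 0.28), as its surroundings were dim by -0.35 and -0.31 on the arrays of extract mice 2 and 3, and its groups came apart. Gins4 kept its difference, at 0.55 (SE 0.28), while extract mouse 3 at 8.81 lay below control mouse 2 at 8.91. Cdca4 was 0.17 (SE 0.08), with overlapping groups. After subtraction 3 of the 5, Cdk1, Gins3 and Mcts1, had groups apart, against 10.5% of bright features, and the median difference of the 5 was 0.48. The same 3 had groups apart over 21 by 21 features, and these 3 with Cdca4 over 7 by 7 features, each against 10.1% of bright features.

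**Figure D4:**
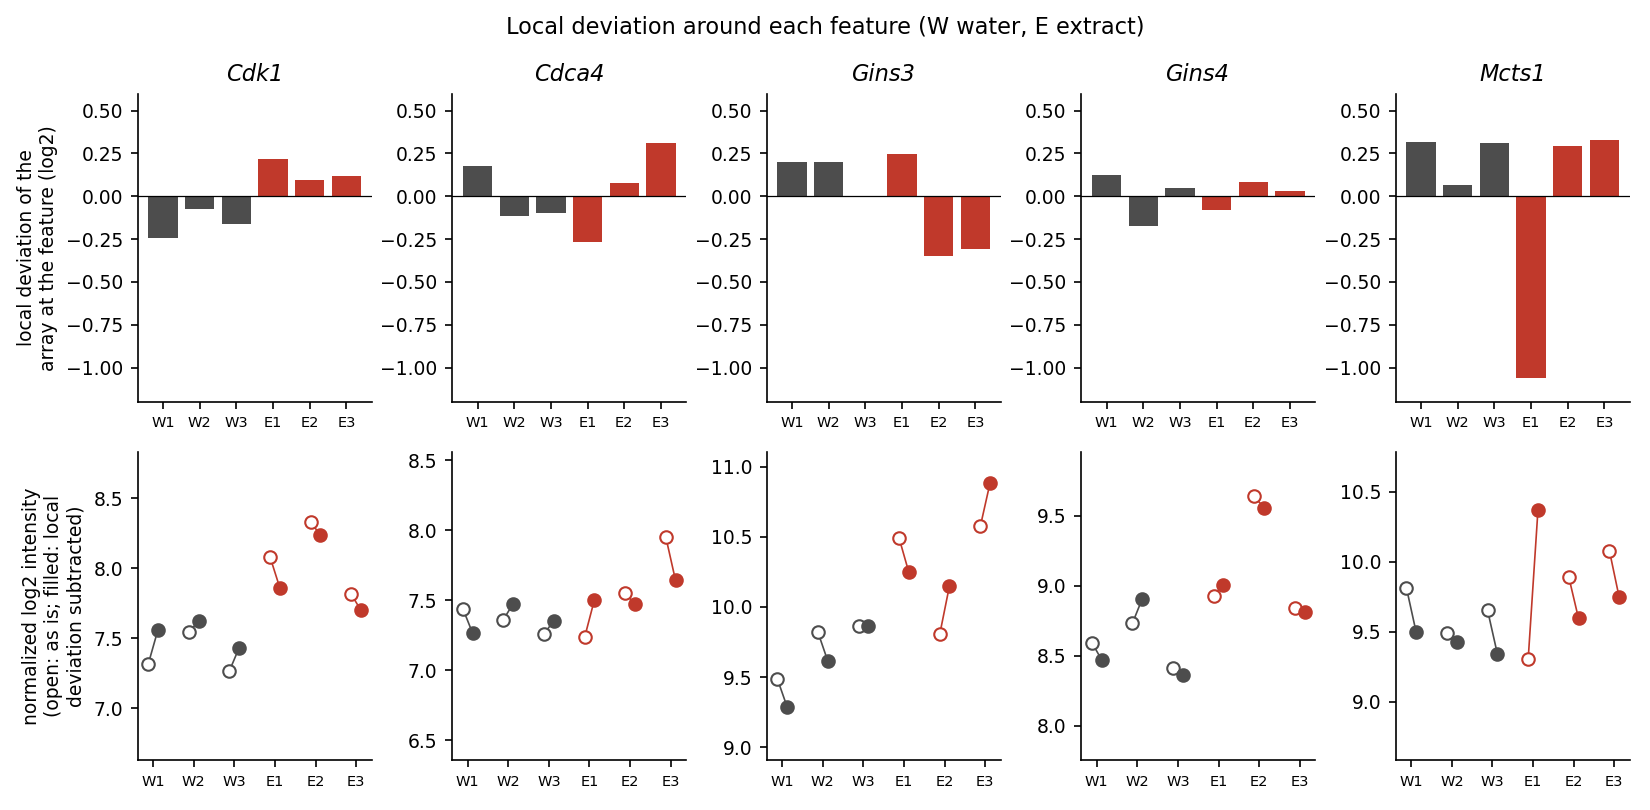
Upper panels give the local deviation of each array (log2) at the feature of each gene, and lower panels the normalized log2 intensity before (open) and after (filled) its subtraction, in water (W, grey) and extract (E, red) livers. The bar of -1.06 for Mcts1 on the array of extract mouse 1 is the longest, and its removal lifts that liver from lowest to highest.

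The set of genes with groups apart was not the same under each scaling between arrays. Without scaling the differences were 0.94 for Cdk1, 0.74 for Gins4, 0.71 for Gins3, 0.49 for Cdca4 and 0.27 for Mcts1, to be read against a shift of 0.18 for the median bright feature. Cdk1, Gins3 and Gins4 then had groups apart, 3 of 5 against 14.1% of bright features. With arrays centred on the median or the 75th percentile of bright features the 3 were Cdk1, Cdca4 and Gins4, against 10.7% under either. With the 75th percentile of all features, which was an intensity of 41 on control arrays 1 and 2 and of 99 to 123 on the other arrays, the median bright feature moved by -0.81, and the differences turned to -0.05 for Cdk1, -0.26 for Gins4, -0.28 for Gins3, -0.51 for Cdca4 and -0.72 for Mcts1. None of the 5 had all extract mice above all controls there, as for 0% of bright features, while 41.2% of bright features had all extract mice below. Cdk1 was the only one of the 5 with groups apart under 9 of 10 scalings, floors and filters, that centring being the exception. Gins4 had them under 6, Gins3 under 4, and Cdca4 and Mcts1 under 3. The 10 were not independent, since a floor of 10 left all 5 differences unchanged and local deviations entered at 3 widths. With 1 mouse left out, Cdk1 differed by 0.57 to 0.83 and Gins4 by 0.31 to 0.71. Without extract mouse 1, 4 of the 5 had groups apart, all but Gins3, against 14% of bright features.

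**Figure D5:**
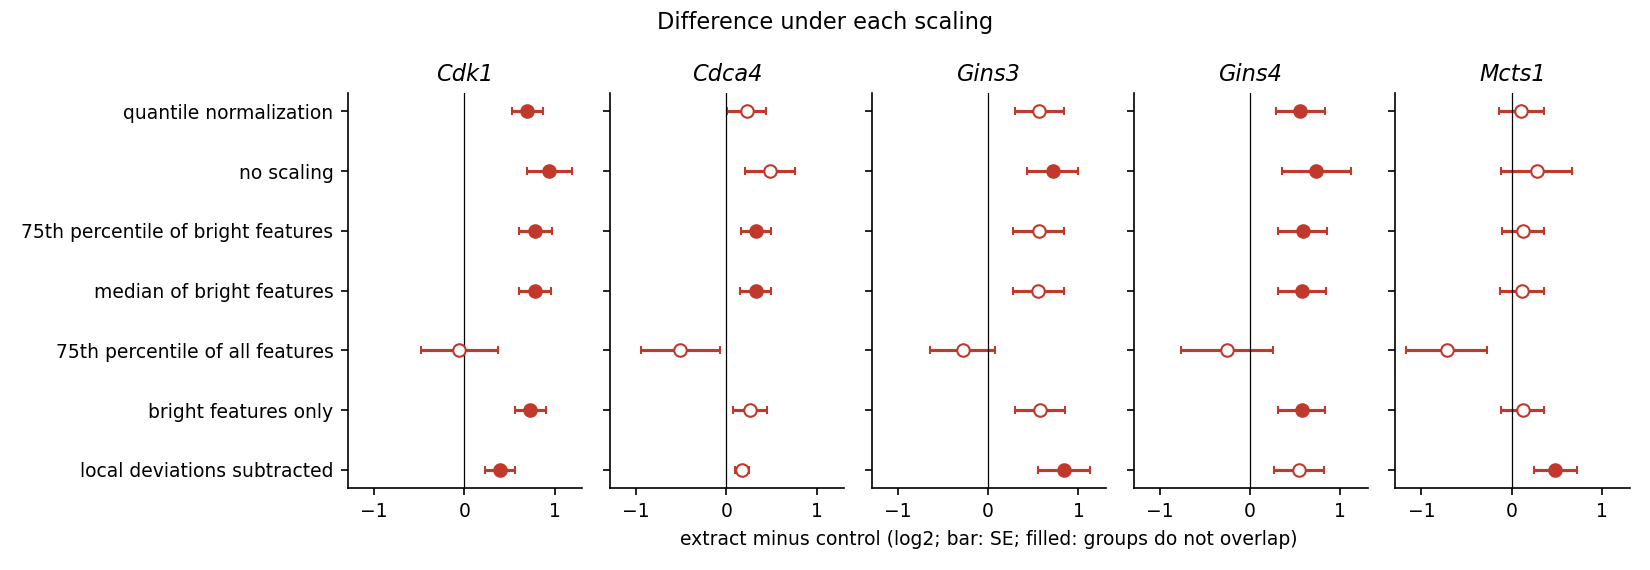
Extract-minus-control difference (log2) of the 5 genes under 7 ways of scaling or filtering, with bars for the SE, filled points where all extract mice lie above all controls and open points where groups overlap. Points lie above 0 except with the 75th percentile of all features, where they run from -0.72 for Mcts1 to -0.05 for Cdk1.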

How the data were processed

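Values deposited by the authors are intensities, 1 per feature and array, from 1-colour Cy3 arrays. Per the submitters' processing notes they come from Agilent Feature Extraction, with no version, background correction or scaling stated there. The authors' table supplied gene names through feature numbers, and its ratio columns were not used. Quantile normalization across the 6 arrays came first, then a floor of 1, then log2. The groups were compared in R 4.3.3 by limma 3.58.1 (lmFit, eBayes, two-sided), with Benjamini-Hochberg adjustment over 45220 features, and the code was tested on simulated data. Groups are called apart where all extract mice lie above all controls. The SE is that of a difference of 2 means with separate SDs. Alternatives were other scalings, a floor of 10, bright features only, local deviations, a replicate block, other variance models and each mouse left out. Named genes are the 5 members, the 2 nearest profiles for each, and the extremes of their heading. Cyp4a12a and Fcgr2b were added as the named cell type markers and Pclaf for its known role. The members, lists and settings were chosen with earlier results of these data known. With 3 arrays a group, their number sets the precision.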

Additional observations from a re-analysis of the deposited data

How the results depend on the processing

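The count of 0 features at a limma adjusted p below 0.05 became 31 without scaling, 2 with a floor of 10, 1 on bright features only and 5 on bright features with robust, trended eBayes. It was 0 to 190 with 1 mouse left out, 190 without extract mouse 1 and 41 without extract mouse 3. None of these calls was for 1 of the 5 genes. The 669 features at an unadjusted p below 0.01 and 1.5-fold, 240 higher and 429 lower, became 1276 without scaling (1209 higher and 67 lower), 217 with a floor of 10, 158 on bright features only and 186 on bright features with robust, trended eBayes. They were 783 to 1154 with 1 mouse left out, 1154 without control mouse 3. With arrays centred on the median or the 75th percentile of bright features, 776 of 850 and 779 of 854 were higher, and with the 75th percentile of all features 27 of 776. With the replicate block the 2 counts were 0 and 454. Mice of the same number deviated from their group means with correlations of 0.04, 0.15 and 0.25. Mice of different numbers did so at -0.195 to 0.031, lower than each of these. No pairing was assumed in the main comparison, and why same-numbered mice were more alike was not tested. The 2 genes with groups apart, against 9.54% of bright features, became 0 with the 75th percentile of all features, against 0%. They became 4 with local deviations over 7 by 7 features, against 10.1%, and 2 to 4 with 1 mouse left out. The shares of bright features with 1 mouse left out were 12.6% to 15.8%. Without extract mouse 1 the share was 14%, and 4 of the 5 genes had groups apart. The 7 by 7 and 21 by 21 neighbourhoods were chosen after seeing the data. Cdk1 and Cdca4 were dim, at control means of 151 and 149, where background weighs most. The cause of these changes was not tested.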

Other observations

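Pclaf, which encodes a factor bound to the sliding clamp PCNA during DNA synthesis, is named in the authors' table under other functions and was looked up for that role. Its intensities were 1216, 1463 and 1473 in control mice 1, 2 and 3. In extract mice 1, 2 and 3 they were 1637, 2900 and 2576. All extract livers lay above all controls, as for 14.1% of bright features without scaling. The same held after normalization, as for 9.54% of bright features and 83 of the 122 named genes. On the normalized log2 scale the means were 10.53 ± 0.17 (SD, n = 3) and 11.11 ± 0.14 (SD, n = 3), a difference of 0.58 (SE 0.12). The difference was 0.28 with local deviations subtracted, 0.74 without scaling and -0.25 with the 75th percentile of all features. Pclaf comes from the same list as the 5 genes, so its difference is a description as well.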
